A study of Homo sapiens with 9 samples.

Results

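This account concerns 33 genes known as transcriptional targets of p53, read in MDA-MB-231 cells in which the lysyl oxidase-like enzyme LOXL2 was depleted. The genes were chosen by name as known p53 targets, at a time when earlier results of these data were known, and all 33 were found among the 63657 Ensembl genes of the deposited RNA-seq table. The groups compared were 2 shControl libraries (genotype given as control) and 2 shLOXL2 libraries (LOXL2 depletion by a short hairpin RNA), all of the same human triple-negative breast cancer line. The labels give no time after infection and do not say if replicates were grown apart, so the p-values measure the spread between these libraries, which may be technical. The series also holds H3K4ox, H3 and ATAC libraries, whose peaks were not used here.

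p53 is a transcription factor that is stabilised by DNA damage and other stress. It binds DNA as a tetramer at pairs of 10-base half-sites and switches on genes for cell cycle arrest, repair, metabolism and death, among them MDM2, whose product marks p53 for destruction. MDA-MB-231 is known to carry p53 with a missense change in its DNA-binding domain, and many genes of this group are also known to answer to other transcription factors. The expression table cannot check the p53 protein.

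The sequences of 5 promoters are shown because they hold the elements for which the family is known, or belong to a member that changed. They come from RefSeq (GRCh38.p14), whose promoter table, running from 250 bases before to 50 after each start, held 37 promoters of 25 of the 33 genes. GADD45A, RRM2B, TP53INP1, PHLDA3, TNFRSF10A, TNFRSF10B, TNFRSF10C and FBXO22 had no entry. The 250 bases upstream of CDKN1A, which fell, are at chr6:36678464-36678713 (plus strand), with GGGCGG in capitals, searched together with its complement on both strands, of which the last pair of matches overlap.
CDKN1A: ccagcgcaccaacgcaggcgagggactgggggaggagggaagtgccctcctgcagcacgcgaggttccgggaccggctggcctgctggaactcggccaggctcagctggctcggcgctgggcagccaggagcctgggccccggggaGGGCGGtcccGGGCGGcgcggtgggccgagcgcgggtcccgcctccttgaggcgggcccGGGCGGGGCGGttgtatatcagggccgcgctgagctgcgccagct
The FAS stretch, also of a gene that fell, is at chr10:88991181-88991430 (plus), the MDM2 stretch at chr12:68808883-68808982 (plus), the AEN stretch at chr15:88621266-88621339 (plus) and the SESN1 stretch at chr6:109008989-109009077 (minus). Capitals mark in each the closest match to the 20-base p53 site of 2 adjoining half-sites.
FAS: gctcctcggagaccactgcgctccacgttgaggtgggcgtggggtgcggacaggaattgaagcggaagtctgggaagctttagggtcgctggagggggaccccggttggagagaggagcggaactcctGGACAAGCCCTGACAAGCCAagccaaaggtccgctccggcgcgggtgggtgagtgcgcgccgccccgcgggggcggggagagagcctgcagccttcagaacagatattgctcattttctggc
MDM2: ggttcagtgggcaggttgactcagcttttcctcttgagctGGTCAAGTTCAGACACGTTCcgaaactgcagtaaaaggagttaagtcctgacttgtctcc
AEN: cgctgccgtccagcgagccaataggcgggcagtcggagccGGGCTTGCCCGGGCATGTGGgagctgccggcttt
SESN1: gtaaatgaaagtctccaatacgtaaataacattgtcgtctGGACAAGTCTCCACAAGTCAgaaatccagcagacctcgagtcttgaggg
A p53 site with at most 2 mismatches was found in 4 of the 37 promoters (10.8%), those of FAS and AEN and 2 overlapping promoters of MDM2, against 0.649% of all 35116 promoters of the same length. By gene this was 3 of 25 (12%), against 0.82% of all 27305 genes. The limit of 2 was chosen after the matches were seen. The genes were chosen as known p53 targets, so this share is no test of the list. The SESN1 match has 3 mismatches. A single half-site without a mismatch was present in 6 of the 37 (16.2%; SESN1, FAS, AEN, PLK2, RPS27L and FDXR), against 6.63% of all. GGGCGG, on either strand, was present in 31 of the 37 (83.8%), against 45% of all. The background of all promoters was not matched to the 33 genes in gene class. These matches describe the letters in the window, and elements farther off, such as the distal sites known for CDKN1A, lie outside it.

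LOXL2, the gene the hairpin targets, was at 85.5 and 84.5 FPKM in control cells and 15.2 and 12.1 FPKM after depletion, a log2 change of -2.56 ± 0.122 (SE, n = 2 per group, limma adjusted p = 0.0124). FPKM is the number of fragments per kilobase of transcript, scaled to library size, so levels can be set side by side between genes. Changes below are differences of log2(FPKM + 1), so those of low genes are understated. FPKM keeps no read counts, so the depth behind a value is unknown. The sum of FPKM ran from 1221570 to 1369370 over the 4 libraries. The 5 markers of the line (VIM, CD44, EGFR, CAV1 and AXL) were all expressed, the lowest being EGFR at a mean of 34.3 FPKM. Of these, CD44 (log2 -0.39, limma adjusted p = 0.0172) and EGFR (log2 -0.24, limma adjusted p = 0.0497) fell, CAV1 rose (log2 0.21, limma adjusted p = 0.0430), and VIM and AXL did not pass. CDKN2A and CDKN2B, known to be deleted in this line, were listed at 0 in all 4 libraries. Of 6 luminal and hormone receptor markers, ESR1 and PGR stayed below 0.1 FPKM and FOXA1 averaged 0.104 FPKM, while CDH1 and GATA3 averaged 1.03 and 1.43 FPKM and ERBB2 27.5 FPKM. None of the 3 that were tested passed (limma adjusted p = 0.148, 0.351 and 0.717 for CDH1, GATA3 and ERBB2). Fibroblast markers reached a mean of 1 FPKM for 2 of 10 genes (COL1A1 and PDGFRB) and summed to 6.07 to 7.43 FPKM in shControl and 10.2 to 12.4 FPKM in shLOXL2, and COL1A1 rose (log2 0.69, limma adjusted p = 0.0287); their part in the results was not tested. Haematopoietic markers summed to at most 2.74 FPKM in any library.

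Of the 33 p53 target genes, 30 averaged 1 FPKM or more and were tested, and BTG2, EDA2R and SPATA18 did not. With LOXL2 shRNA 3 of the 30 rose (TNFRSF10A, TNFRSF10B and TP53INP1), 4 fell (CDKN1A, GADD45A, FAS and RRM2B) and 23 did not pass (limma, adjusted p below 0.05 over all genes). Among all 16987 genes tested, 8.35% rose and 8.54% fell, 16.9% in all. At 7 of 30 (23.3%), the share of p53 target genes that passed lies near that background and says nothing particular of the list. With protein-coding genes fitted alone 14 of 29 passed (7 rose and 7 fell, 48.3%), and the share over all genes was then 38.5% (4312 of 11213). The median log2 change was -0.10 over the 30 genes, of which 13 were above 0 and 17 below, and -0.0041 over all genes. The median size of a change, whatever its direction, was 0.23 against 0.18. The 2 groups of libraries did not overlap for 24 of the 30 genes, where the same held for 64.6% of all genes tested. None of the 7 calls was kept when any 1 of the 4 libraries was left out, and no other p53 target gene passed. These limma fits have 1 residual degree of freedom in place of 2, and few of all genes passed in them. Log2 changes then ran from -0.49 to -0.47 for CDKN1A and from -0.68 to -0.64 for GADD45A. For FAS they ran from -0.69 to -0.58 and for RRM2B from -0.60 to -0.50. The ranges were 0.46 to 0.49 for TNFRSF10A, 0.47 to 0.49 for TNFRSF10B and 0.71 to 0.79 for TP53INP1.

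**Figure D1:**
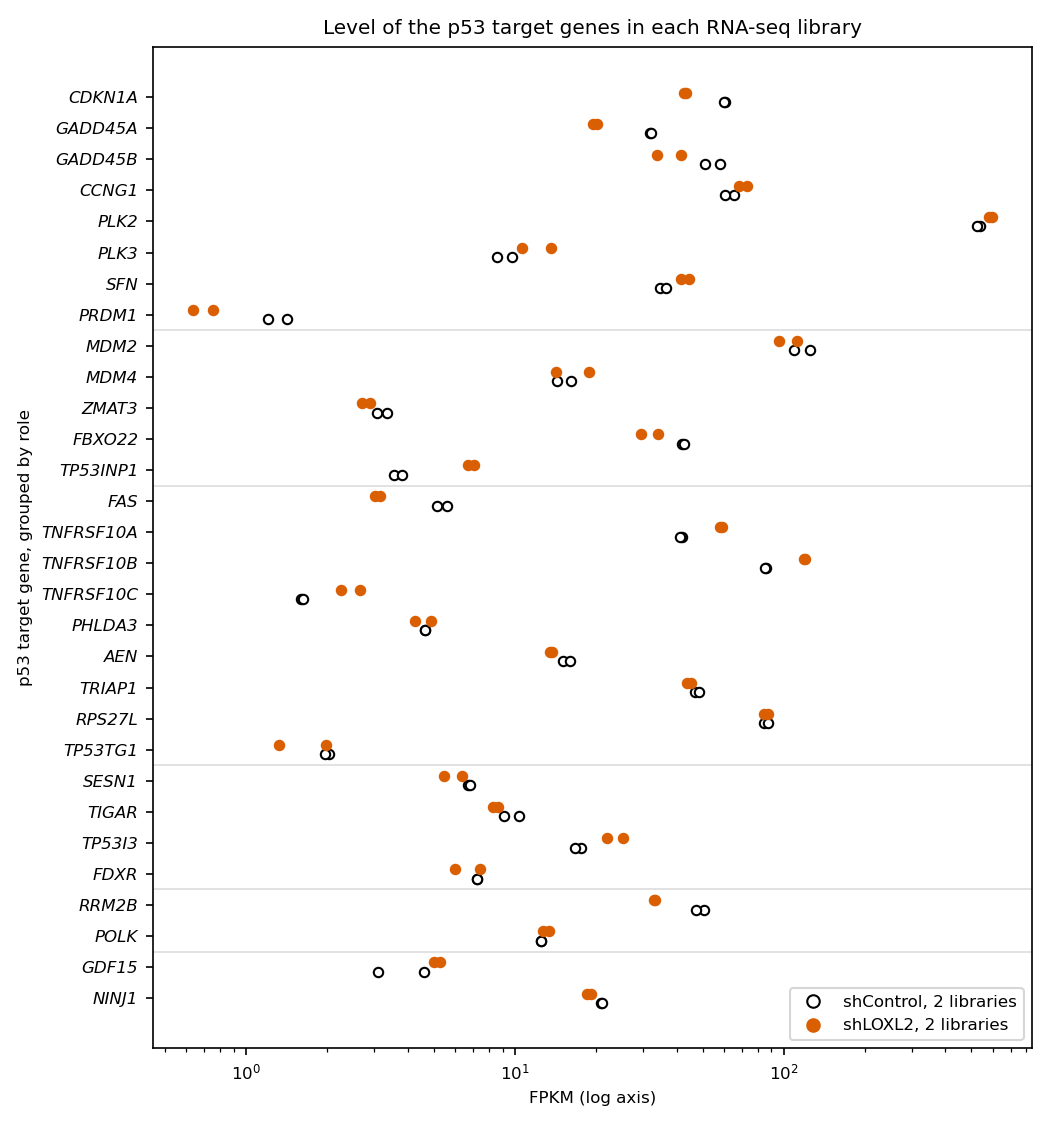
FPKM (log axis) of the 30 tested p53 target genes, 1 point per library, with open circles for the 2 shControl and filled circles for the 2 shLOXL2 libraries, and grey lines between roles (arrest, feedback on p53, death, metabolism, nucleotides and bypass, secreted or adhesion). PLK2 is the highest at a mean of 561 FPKM and PRDM1 the lowest at 1.004 FPKM, and for 24 genes the groups do not overlap.

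The genes spanned a wide range of levels, as the plot of levels by library shows. PLK2 had a mean of 561 FPKM over the 4 libraries, higher than 98.4% of tested genes. MDM2 followed at 111 FPKM, TNFRSF10B at 103 FPKM and RPS27L at 86.1 FPKM. The median over all 33 genes was 14.6 FPKM. At the other end, BTG2, which recruits the machinery that shortens mRNA tails and slows growth, had 0.210 and 0.108 FPKM in the controls and 0.0835 and 0.0996 FPKM in depleted cells. EDA2R, a receptor of the ectodysplasin family, was at most 0.0262 FPKM. SPATA18, a factor of mitochondrial quality control, was listed at 0 in 1 library and below 0.1 FPKM in the others. These 3 genes were too low for a statement on change.

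Genes of cell cycle arrest and growth control did not move together: of 8 tested, 2 fell, 0 rose and 6 did not pass. CDKN1A (ENSG00000124762) encodes p21, the inhibitor of cyclin-dependent kinases through which p53 arrests the cycle. Its level was 60.8 and 60.1 FPKM in the controls and 43.4 and 42.6 FPKM after depletion. In bulk RNA, less RNA per cell and fewer cells with the RNA cannot be told apart. Both depleted libraries lay below both controls, at 71.2% of the control mean (log2 -0.48 ± 0.0315, SE, n = 2 per group, limma adjusted p = 0.0134). GADD45A (ENSG00000116717), a small stress protein that binds p21 and PCNA, stood at 32.0 and 32.2 FPKM against 20.2 and 19.6 FPKM. On the log2(FPKM + 1) scale this was the largest fall among the 30 genes (log2 -0.66 ± 0.0358, SE, n = 2 per group, limma adjusted p = 0.0131), and again the groups did not overlap. As a percent of the control mean GADD45A stood at 62.1%, and the low genes FAS and PRDM1 stood lower, at 57.7% and 52.8%.

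Its relative GADD45B, which acts on stress kinase cascades, had a similar difference with more spread, with 58.1 and 51.0 FPKM in the controls and 33.8 and 41.6 FPKM in depleted cells (log2 -0.53, 95% interval -0.92 to -0.13, limma adjusted p = 0.0874). PRDM1, a transcriptional repressor, was near the lowest level tested, at 1.21 and 1.42 FPKM against 0.754 and 0.634 FPKM (limma adjusted p = 0.153). The other 4 had positive differences that did not pass. SFN, the 14-3-3 sigma protein that holds mitotic kinases in the cytoplasm, was at 34.8 and 36.4 FPKM against 44.3 and 41.6 FPKM (log2 0.26, limma adjusted p = 0.0549). The polo-like kinase gene PLK2 was at 540 and 526 FPKM against 583 and 596 FPKM (log2 0.15, limma adjusted p = 0.0724). For PLK3, a second kinase of that family, and CCNG1, the cyclin G1 gene, the log2 changes were 0.36 and 0.16, and the groups did not overlap for either.

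**Figure D2:**
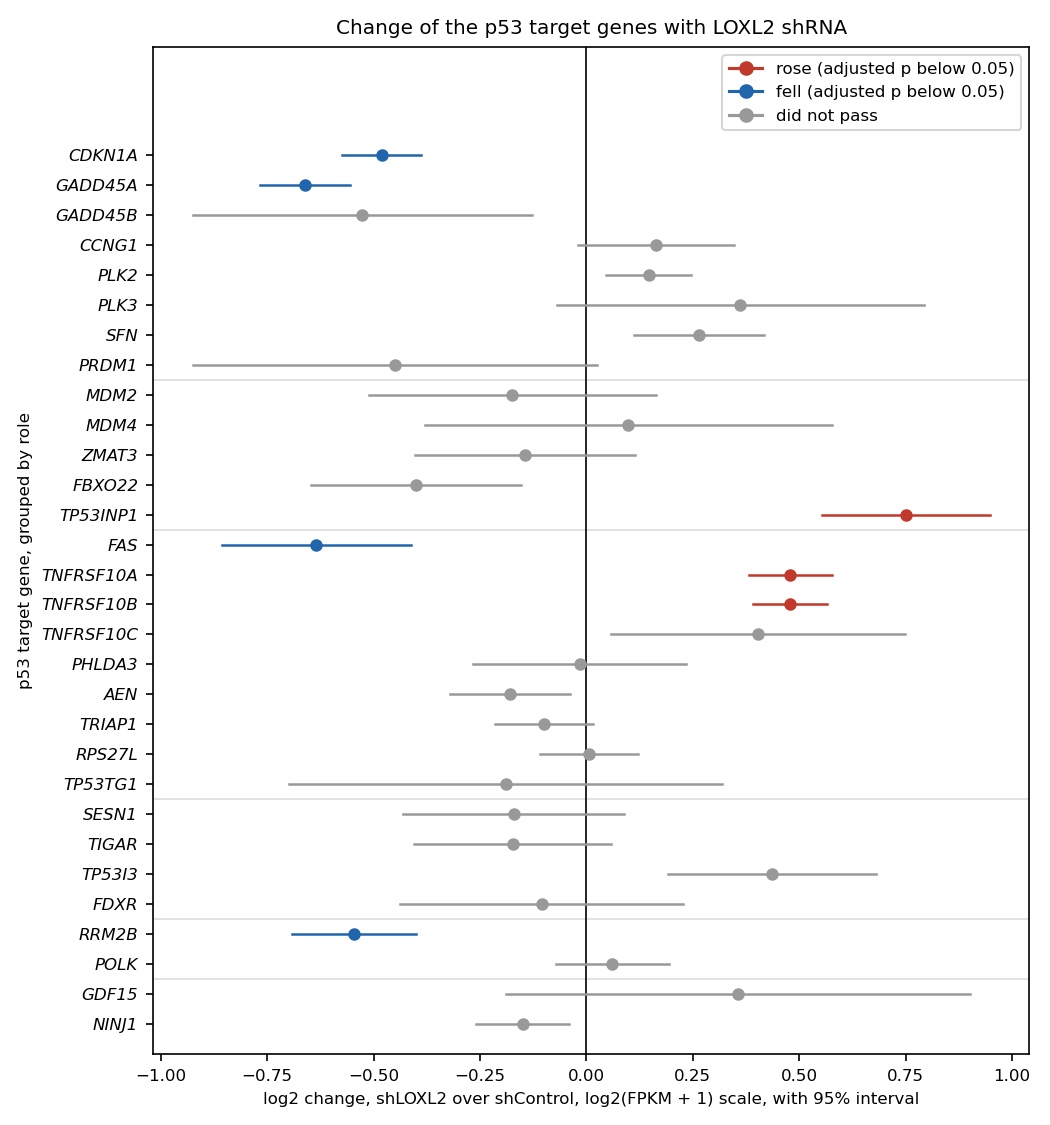
Log2 change of each tested p53 target gene (shLOXL2 over shControl, log2(FPKM + 1) scale) with its 95% limma interval, in red for genes that rose, blue for genes that fell and grey for those that did not pass. The 3 rises and 4 falls stand in 4 different role groups, and the interval of RPS27L runs from -0.11 to 0.12.

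Of the 5 genes that act back on p53 itself, 1 rose. TP53INP1 (ENSG00000164938), a nuclear and autophagy protein that promotes phosphorylation of p53, went from 3.55 and 3.80 FPKM to 6.68 and 7.05 FPKM. The depleted libraries were at 187% of the control mean, the largest rise among the 30 genes (log2 0.75 ± 0.0665, SE, n = 2 per group, limma adjusted p = 0.0183). The gene is low, and its log2 change ran from 0.45 with a pseudocount of 5 FPKM to 0.88 with 0.1 FPKM, passing in both.

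MDM2, the ubiquitin ligase that degrades p53 and whose p53 site is shown above, had 109 and 126 FPKM in the controls and 112 and 96.4 FPKM in depleted cells, so the groups overlapped (log2 -0.17, 95% interval -0.51 to 0.16, limma adjusted p = 0.367). MDM4, its partner that blocks p53 activity, overlapped as well, at 14.3 and 16.1 FPKM against 18.8 and 14.2 FPKM (log2 0.10, interval -0.38 to 0.58). The MDM2 interval reaches the size of the fall called for CDKN1A (log2 -0.48). The MDM4 interval reaches the size of the rises called for TNFRSF10A and TNFRSF10B (log2 0.48 for each). Neither reaches the larger falls or the larger rise called among the 30 genes. FBXO22, an F-box protein of a ubiquitin ligase, was at 41.9 and 42.4 FPKM against 29.5 and 34.1 FPKM, without overlap (log2 -0.40, limma adjusted p = 0.0615). ZMAT3, an RNA-binding zinc finger protein, was at 3.33 and 3.07 FPKM against 2.90 and 2.70 FPKM (limma adjusted p = 0.335).

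Death receptor genes passed in opposite directions. TNFRSF10B (ENSG00000120889) and TNFRSF10A (ENSG00000104689) encode DR5 and DR4, the receptors through which the ligand TRAIL starts apoptosis. TNFRSF10B went from 86.0 and 85.0 FPKM to 120 and 119 FPKM (log2 0.48 ± 0.0292, SE, n = 2 per group, limma adjusted p = 0.0131). TNFRSF10A went from 42.0 and 41.2 FPKM to 57.8 and 59.0 FPKM (log2 0.48 ± 0.0331, SE, n = 2 per group, limma adjusted p = 0.0140). For both genes replicates were close and the groups far apart, with the depleted libraries at 140% of the control mean. The receptor gene FAS (ENSG00000026103), whose ligand is FASLG, went the other way, from 5.58 and 5.11 FPKM to 3.02 and 3.15 FPKM, or 57.7% of control (log2 -0.63 ± 0.0754, SE, n = 2 per group, limma adjusted p = 0.0261). With all low genes kept in the fit, FAS no longer passed (limma adjusted p = 0.0730).

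TNFRSF10C, a decoy receptor for TRAIL that lacks the death domain, was low, with 1.60 and 1.63 FPKM in the controls and 2.26 and 2.67 FPKM in depleted cells. Its groups did not overlap and its call missed the threshold (log2 0.40, 95% interval 0.058 to 0.75, limma adjusted p = 0.108). The other decoy gene, TNFRSF10D, belongs to 2 of the further lists. It rose from 29.5 and 29.8 FPKM to 35.1 and 37.1 FPKM (log2 0.28 ± 0.0433, SE, n = 2 per group, limma adjusted p = 0.0386). TNFRSF10C and TNFRSF10D are close relatives, and the sources used here do not say how reads of shared stretches were assigned. TNFSF10, the gene of the ligand TRAIL, was at 7.05 and 6.86 FPKM against 6.41 and 5.92 FPKM (limma adjusted p = 0.190), and FASLG was below 0.03 FPKM in all 4 libraries.

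The 4 TRAIL receptor genes lie side by side on chromosome 8, in the order TNFRSF10B, TNFRSF10C, TNFRSF10D, TNFRSF10A, and 2 coding genes, CHMP7 and R3HCC1, separate them from LOXL2 in the RefSeq annotation. This neighbourhood was looked at after the values were seen. CHMP7, a membrane remodelling factor, was at log2 -0.10 (limma adjusted p = 0.137) and R3HCC1 at log2 -0.014 (limma adjusted p = 0.861). RHOBTB2, on the far side of TNFRSF10B and overlapping its end, was at log2 -0.026 (limma adjusted p = 0.825), and ENTPD4, beyond LOXL2, at log2 0.079 (limma adjusted p = 0.409). So 3 of the 4 receptor genes rose, all 4 had positive changes and LOXL2 fell, while none of the 4 other coding genes passed.

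**Figure D3:**
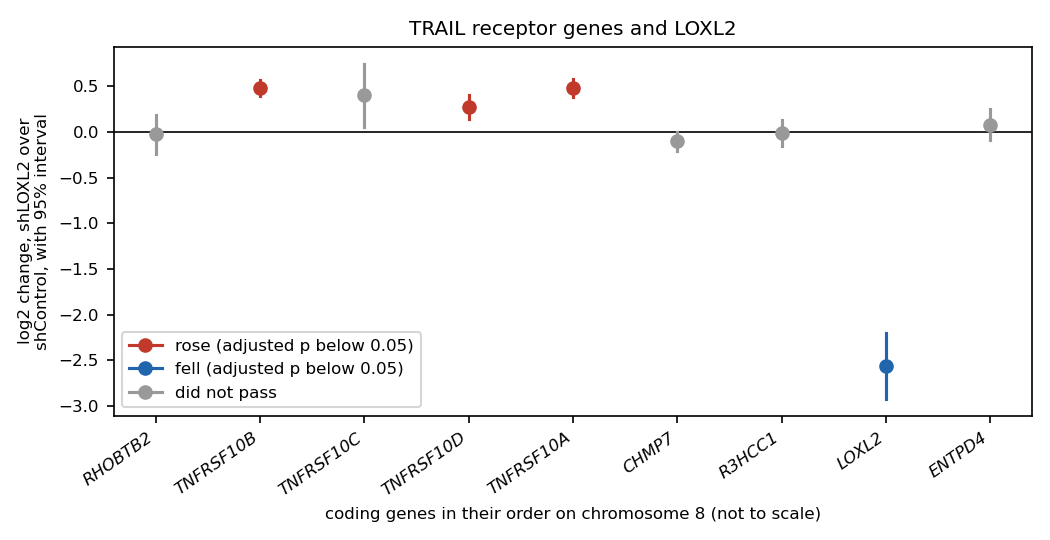
Log2 change (shLOXL2 over shControl, with 95% limma interval) of the coding genes from RHOBTB2 to ENTPD4, in their order on chromosome 8 and not to scale. The 4 TRAIL receptor genes are at 0.28 to 0.48 and LOXL2 at -2.56, with CHMP7 and R3HCC1 between them near 0.

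The other 5 tested genes with links to cell death or survival did not pass. AEN, a nuclease that promotes apoptosis, had 15.1 and 16.0 FPKM in the controls and 13.8 and 13.5 FPKM in depleted cells (log2 -0.18, limma adjusted p = 0.0930), and its groups did not overlap. TRIAP1, a mitochondrial survival factor, was at 46.9 and 48.6 FPKM against 43.8 and 45.2 FPKM (log2 -0.10, limma adjusted p = 0.175). RPS27L, a relative of a ribosomal protein, was nearly level, at 84.4 and 87.4 FPKM against 87.8 and 84.7 FPKM. Its 95% interval of -0.11 to 0.12 does not reach the size of any change called among the 30 genes. PHLDA3, which competes with the kinase AKT for membrane lipids, was at 4.62 and 4.64 FPKM against 4.89 and 4.26 FPKM. TP53TG1, a long noncoding RNA, was at 2.03 and 1.97 FPKM against 1.32 and 1.98 FPKM, with 1 of the depleted libraries within the control range.

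None of the 4 tested genes of metabolism passed. An unadjusted limma p below 0.05 held for 6094 of all 16987 genes and 15 of the 30 targets, 1 of them among these 4. That gene was TP53I3, a quinone oxidoreductase, with 17.6 and 16.8 FPKM in the controls and 22.0 and 25.2 FPKM in depleted cells (log2 0.44, 95% interval 0.19 to 0.68, limma adjusted p = 0.0524). It passed in 5 of 14 alternative settings. SESN1, the sestrin that restrains mTORC1, was at 6.68 and 6.83 FPKM against 5.45 and 6.36 FPKM (limma adjusted p = 0.270). TIGAR, a phosphatase that turns sugar away from glycolysis, was at 9.12 and 10.4 FPKM against 8.69 and 8.33 FPKM (limma adjusted p = 0.222). Both stood lower in the depleted libraries without overlap. FDXR, the ferredoxin reductase of mitochondria, overlapped between the groups, at 7.26 and 7.24 FPKM against 7.42 and 5.99 FPKM.

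RRM2B (ENSG00000048392), the p53-inducible small subunit of ribonucleotide reductase that supplies nucleotides for repair, fell. It went from 50.5 and 47.1 FPKM to 33.3 and 32.9 FPKM, or 67.8% of control (log2 -0.55 ± 0.0492, SE, n = 2 per group, limma adjusted p = 0.0186). POLK, a polymerase that copies past DNA lesions, was at 12.5 and 12.5 FPKM against 12.8 and 13.4 FPKM (log2 0.061, limma adjusted p = 0.415). GDF15, a secreted stress cytokine, was at 4.61 and 3.09 FPKM against 5.01 and 5.26 FPKM (log2 0.36, 95% interval -0.19 to 0.90, limma adjusted p = 0.272). NINJ1, a membrane protein of adhesion and of membrane rupture, was at 21.01 and 21.1 FPKM against 19.2 and 18.6 FPKM (log2 -0.15, limma adjusted p = 0.0809).

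Position and overlap differed among the 7 genes that passed. Chromosome 8, which also holds LOXL2, carries 5 of the 33 genes, of which TP53INP1, TNFRSF10A and TNFRSF10B rose, RRM2B fell and TNFRSF10C did not pass. Of the 25 tested on other chromosomes 3 passed. Over all genes, 20.2% of the 504 tested on chromosome 8 passed, against 18.2% of the 14472 tested and placed on any chromosome. The count by chromosome was made after the values were seen, and 3 of the 5 genes are neighbours in the receptor cluster described above. In the RefSeq annotation another gene overlaps 5 of the 7, and GADD45A and RRM2B have no such neighbour. Over all 33 genes another gene overlaps 18, and for 10 of them a coding gene does. The sources used here do not name the strand setting of the counting, so reads of an overlapping gene cannot be told apart.

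The lists that follow were also chosen with earlier results known. CHEK1, PPM1D and TNFRSF10D each belong to 2 of these lists and are counted in both. Each count of the main fit stands against the 16.9% of all genes that passed (8.35% rose and 8.54% fell). As with the p53 target genes, no gene of these lists passed limma's threshold when any 1 of the 4 libraries was left out. In those fits few of all genes passed. Further genes known as p53 targets, a list of 67 of which 66 were matched and 59 tested, had 12 that rose and 8 that fell (33.9% passed, median log2 0.046). With protein-coding genes alone 25 of 59 passed (42.4%, against 38.5% of all genes). Without a filter on low values 11 of 66 passed (16.7%, against 3.16% of all genes). PGF, a growth factor of the VEGF family, rose from 5.54 and 5.36 FPKM to 13.6 and 14.6 FPKM (log2 1.22 ± 0.0569, SE, n = 2 per group, limma adjusted p = 0.0124). CSF1, the macrophage growth factor, also rose (log2 1.57, limma adjusted p = 0.0131). PRKAB1, a regulatory subunit of the energy sensor AMPK, fell from 22.0 and 21.9 FPKM to 12.5 and 11.8 FPKM (log2 -0.80 ± 0.0464, SE, n = 2 per group, limma adjusted p = 0.0131), and the chaperone gene HSPA4L fell as well (log2 -0.56, limma adjusted p = 0.0131). The BH3-only death genes, chosen after the values were seen, differed from each other. BBC3, the PUMA gene, rose from 4.78 and 4.63 FPKM to 7.85 and 7.09 FPKM (limma adjusted p = 0.0279), and PMAIP1, the NOXA gene, was at 95.8 and 97.5 FPKM against 96.5 and 102 FPKM (limma adjusted p = 0.567). BAX, the pore-forming effector, overlapped between the groups at 137 and 146 FPKM against 155 and 145 FPKM.

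Among 37 tested genes of 38 that modify p53 or its relatives, 3 rose and 6 fell (24.3% passed against 16.9% of all genes, median log2 0.011). This count was 16 with protein-coding genes alone (43.2%, against 38.5% of all genes) and 3 without an intensity trend (8.11%, against 11.5%). Without a filter it was 2 (5.41%, against 3.16%). HDAC1, a histone deacetylase that also deacetylates p53, rose from 110 and 106 FPKM to 185 and 188 FPKM (log2 0.79 ± 0.0349, SE, n = 2 per group, limma adjusted p = 0.0124). PRMT5, an arginine methyltransferase that modifies p53, fell from 408 and 389 FPKM to 170 and 189 FPKM (log2 -1.15 ± 0.0699, SE, n = 2 per group, limma adjusted p = 0.0131). DAXX, a histone H3.3 chaperone that binds MDM2, fell as well (log2 -0.45, limma adjusted p = 0.0243). The p53 family members TP63, at 0.746 and 0.695 FPKM against 1.61 and 1.24 FPKM, and TP73, at 1.24 and 1.46 FPKM against 0.755 and 0.875 FPKM, were low and did not pass (limma adjusted p = 0.140 and 0.196). These were named after their values were seen.

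In the death receptor pathway outside the 33 genes, 5 rose and 4 fell of 18 tested (50% passed against 16.9% of all genes, median log2 0.057). With protein-coding genes alone 9 of 18 passed as well, and the share over all genes was then 38.5%. Without a filter 2 of 19 passed (10.5%, against 3.16% of all genes). TNFRSF1A, the main receptor of TNF, rose from 107 and 99.9 FPKM to 151 and 159 FPKM (log2 0.58, limma adjusted p = 0.0198). The executioner caspase gene CASP6 rose too (log2 0.29, limma adjusted p = 0.0228). BIRC2, a ubiquitin ligase that restrains death signalling, fell from 100.3 and 91.7 FPKM to 67.5 and 68.0 FPKM (log2 -0.49, limma adjusted p = 0.0243). Further genes of this list were named after the values were seen. Of these, FADD and CASP8 overlapped between the groups. CFLAR, the inhibitor of caspase 8, fell from 31.9 and 32.4 FPKM to 27.2 and 27.3 FPKM (limma adjusted p = 0.0317). TRADD rose from 4.79 and 4.77 FPKM to 6.24 and 6.20 FPKM (limma adjusted p = 0.0409).

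p53 is also known to lower many cell cycle genes indirectly, through p21 and the DREAM and RB complexes. Of 47 tested genes of that kind 18 fell, 1 rose (TTK, a spindle checkpoint kinase) and 28 did not pass, with 39 changes below 0 and a median log2 of -0.19. Those that fell were 38.3% of the list, against 8.54% of all genes. With protein-coding genes alone the shares that fell were 53.2% and 19.4%. No call was kept with 1 library left out, and the rise of TTK was lost without a filter, with median centring and without an intensity trend. Examples with the smallest p were the helicase subunit genes MCM3 (log2 -0.63, limma adjusted p = 0.0124), MCM6 (log2 -0.85, limma adjusted p = 0.0131) and MCM4 (log2 -0.49, limma adjusted p = 0.0131), and MYBL2, the B-MYB transcription factor (log2 -0.48, limma adjusted p = 0.0134). Of the 13 genes of the complexes themselves, 3 fell and 0 rose in limma (23.1% passed, against 16.9% of all genes). Without a filter 1 passed (7.69%, against 3.16% of all genes). With protein-coding genes alone 5 passed (38.5%, and also 38.5% of all genes). RBBP4, a histone-binding subunit of DREAM, went from 45.5 and 41.3 FPKM to 19.4 and 17.4 FPKM (log2 -1.19 ± 0.0838, SE, n = 2 per group, limma adjusted p = 0.0140), the DNA-binding subunit gene LIN54 was at log2 -0.54 (limma adjusted p = 0.0270) and the p107 gene RBL1 at log2 -0.23 (limma adjusted p = 0.0409).

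**Figure D4:**
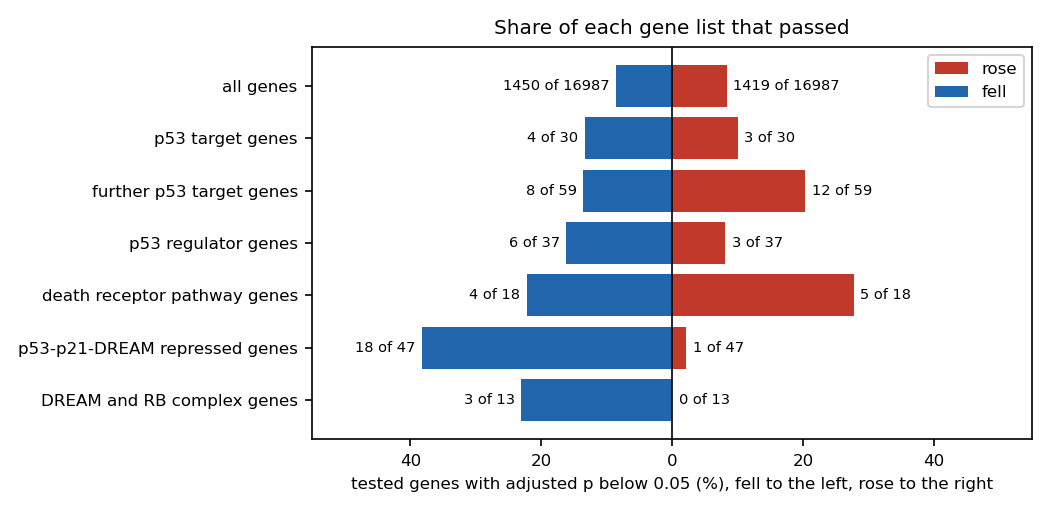
Percent of the tested genes of each list that fell (bars to the left) or rose (bars to the right) at a limma adjusted p below 0.05, with the counts beside the bars. The p53 target list has 3 rises and 4 falls of 30. The list of genes known to be lowered by p53 through p21 and DREAM has 18 falls of 47.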

How the data were processed

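RNA-seq of 2 shControl and 2 shLOXL2 libraries was used. The authors deposited 1 gene table in FPKM, with 1 column per library; per the submitters' processing notes, Bowtie, Cufflinks and GRCh37 were involved, no version is listed, and the sources used here do not name the annotation. Peak lists of the series were left out, as no GRCh37 annotation was at hand to place genes. Symbols came from an Ensembl name table and all 33 members matched. From the deposited FPKM, log2(FPKM + 1) was computed for genes averaging 1 FPKM or more and fitted with limma 3.58.1 (R 4.3.3; intensity trend, two-sided, no replicate block, Benjamini-Hochberg over all 16987 genes, threshold 0.05). The code was tested on simulated data. Intervals are 95% limma intervals. A listed 0 may be a failed estimate. Members and lists were chosen with earlier results of these data known. Every member is described; from other lists up to 4 genes past the threshold with the smallest p are named, except some that are not reported here, and further names are marked. Lists carry counts and medians with no set test. Promoters came from RefSeq (GRCh38.p14; Python 3.11.15, pandas 2.3.3), and the mismatch limit of 2 was chosen after seeing matches. The 14 alternatives covered pseudocount, filter, scaling, variance prior, gene class, replicate block and each library left out.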

Additional observations from a re-analysis of the deposited data

How the results depend on the processing

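Over 8 alternatives (both pseudocounts, no filter, a filter at 5 FPKM, quantile normalization, median centring, no trend and a robust prior) 6 to 9 p53 target genes passed, and FAS lost its call without a filter and was not tested at 5 FPKM. Protein-coding genes fitted alone gave 14 (7 rose, 7 fell) of the p53 targets, 4312 of all genes, 16 regulators and 5 DREAM and RB genes. Without a filter 1143 of all 36224 genes passed, 11 further targets, 2 regulators, 2 death receptor genes and 1 DREAM and RB gene. Without a trend 1948 of all genes and 3 regulators passed. Leaving out 1 library gave 193 to 294 calls over all genes, 0 to 0 in each list, and a LOXL2 log2 change of -2.72 to -2.41, not past the threshold without either control. Signs turned for 4 genes that did not pass: PHLDA3 (0.0074 with median centring, -0.098 to 0.066 with 1 library left out), RPS27L (-0.027 with quantile normalization, -0.020 to 0.031), FDXR (-0.24 to 0.030) and MDM4 (-0.093 to 0.29); the cause was not tested. The replicate numbers share only a label: deviations of same-numbered libraries correlated at -0.0013, and with a replicate block 0 genes passed limma's threshold in any list or over all genes (5519 at an unadjusted p below 0.05, 13 of them p53 targets), with LOXL2 at -2.56 (adjusted p = 0.0713). Depth is unknown from FPKM, so no counting limit is given.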
